A study of Mus musculus with 8 samples.

Results

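The genes described here encode claudins, other tight junction proteins and desmosome proteins, which hold neighbouring epithelial cells together. They were taken by symbol from the deposited gene table, and the set was chosen with earlier results of these data known. It holds 31 claudins, 5 other tight junction membrane proteins (Ocln, Marveld2, Marveld3, F11r and Cxadr), 7 tight junction plaque and polarity proteins (among them Tjp1, Cgn and Pard6b), 9 desmosomal cadherins and 6 desmosomal plaque proteins (Dsp, Jup, Pkp1, Pkp2, Pkp3 and Pkp4). Together these were 58 of 22274 genes. RNA sequencing counts came from 8 libraries of RFB, a mouse kidney cell line whose cell type is labelled fibroblast. All 8 were treated with TGF-β. In 4 libraries this was the only treatment, and in the other 4 chaetocin was added, a compound from fungi that blocks SUV39-type enzymes, which methylate lysine 9 of histone H3, and also acts on redox enzymes. Doses, times and any cells without TGF-β were not given or not analysed here, so the values compare chaetocin with its absence under TGF-β and do not describe TGF-β itself. Knockdown of Suv39h1 is named in the series' design text, but the sample labels give only treatments. Whether the 4 libraries of a group are separate cultures is not labelled. The p-values then cover only the spread between libraries, which may be technical.

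Tight junctions seal the space between epithelial cells near their apical side. Claudins are membrane proteins that form the sealing strands and, depending on the claudin, close the path between cells or open it to selected ions. Occludin and the MARVEL proteins sit in the same strands, and plaque proteins such as ZO-1 (gene Tjp1) tie them to actin. Desmosomes are separate spot-like contacts in which desmogleins and desmocollins of neighbouring cells bind each other and are linked by plakoglobin (Jup), plakophilins and desmoplakin (Dsp) to keratin filaments. In kidney the claudins along the tubule set which ions pass between cells, and loss of junction genes is part of the epithelial response to TGF-β.

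Libraries with TGF-β alone held 20135312 to 23664084 counts. Chaetocin replicate 1 held 22591935 and its other replicates 14421225 to 15084876. Junction genes took 0.472 to 0.477% of counts with TGF-β alone and 0.479 to 0.496% with chaetocin. Markers of both epithelium and fibroblasts were present under TGF-β alone. Epcam stood at 285 ± 7.44 CPM (counts scaled to library size; mean ± SD, n = 4) and Cdh1, the epithelial cadherin, at 651 ± 8.10 CPM, whereas the tubule segment markers Slc34a1, Slc12a3, Aqp2 and Calb1 had 1, 2, 0 and 1 counts over those 4 libraries. Of the fibroblast markers, Acta2, Vim, Tagln and Fbln2 stood at 1248, 1163, 1122 and 982 CPM and Col1a1 at 233 CPM, whereas Lum and Dcn had 1 and 11 counts. Libraries are named by treatment. In bulk RNA fewer cells that express a gene and less RNA per cell cannot be told apart.

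A filter on low counts kept 41 of the 58 genes for the test. Of the 17 left out, 5 had no counts in any library. Among the 41, 28 were higher and 11 lower with chaetocin (edgeR quasi-likelihood test, Benjamini-Hochberg adjusted p under 0.05), 95.1% of those tested. Over all 14608 genes tested, 80.7% were called, 42% higher and 38.8% lower. The junction genes' share of calls thus has to be read against a table in which most genes were called, and in which differences as small as 0.07 on the log2 scale passed the test. With a fold of at least 2 as well, 14 junction genes were higher and 2 lower, where 19.7% and 4.88% of all genes were. In 27 the lowest chaetocin library was above the highest TGF-β library, and in 10 the groups were separated the other way, where all genes gave 39% and 35.7%. The median log2 fold change was 0.36, and 0.02 over all genes. A gene with few counts under TGF-β passed the filter only where chaetocin libraries had more, so the count of rises among such genes is partly set by the filter. Of the 24 junction genes with a mean FPKM (a value per length and depth) of at least 5 under TGF-β alone, which the filter does not affect, 14 were higher and 8 lower, with a median of 0.11, against 29% higher and 53.4% lower among the 8554 genes at that level. Of the 17 tested junction genes under 5 FPKM, 14 were higher and 3 lower, and among all 6054 tested genes under 5 FPKM 60.3% were higher and 18.1% lower, with a median log2 fold change of 0.70.

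**Figure D1:**
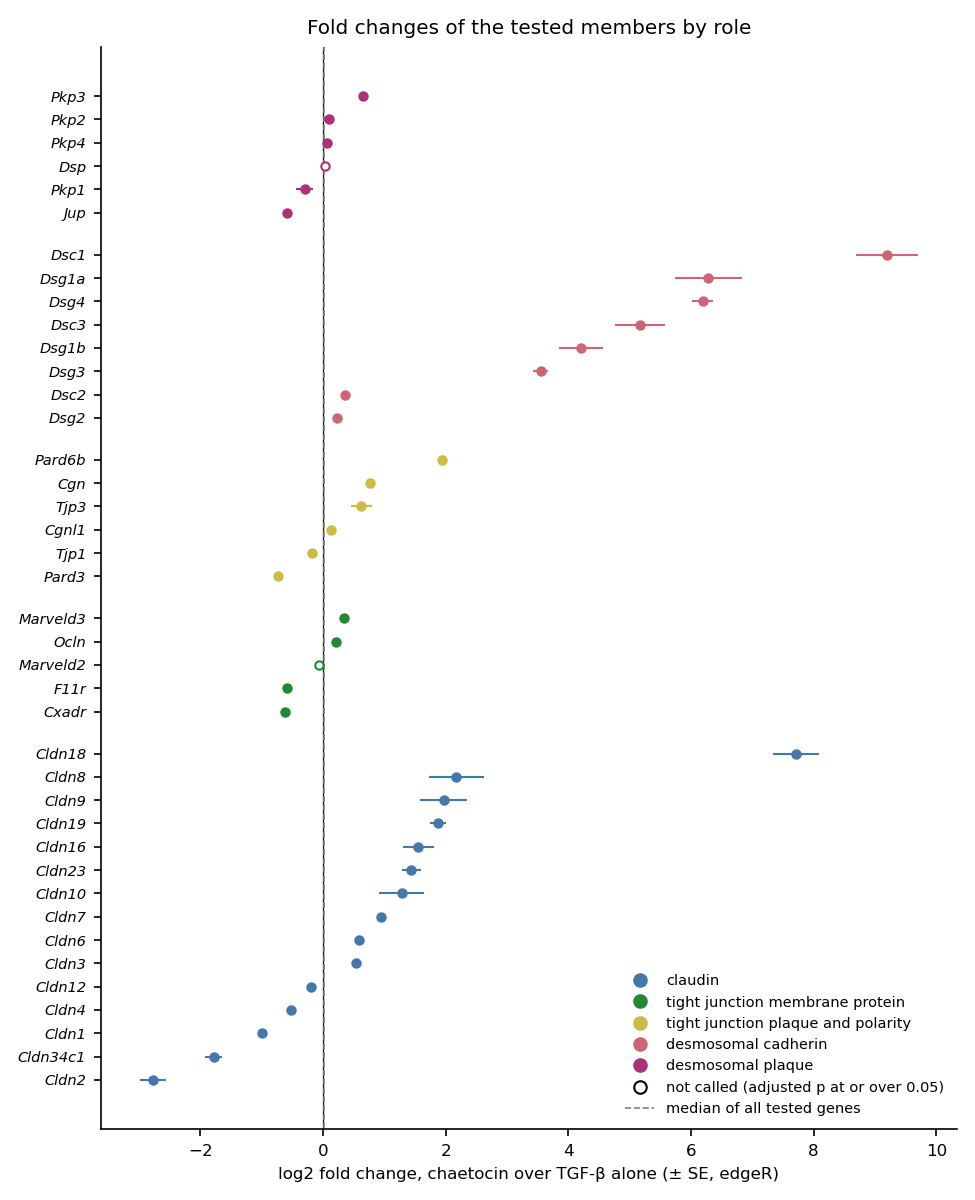
Log2 fold change (x axis, chaetocin over TGF-β alone, ± SE from edgeR) of 40 of the 41 tested genes (y axis), coloured by role, with open points for the 2 genes not called and a dashed line at the median of all tested genes, 0.02. The widest span is within the claudins, from -2.77 for Cldn2 to 7.71 for Cldn18, and all 8 tested desmosomal cadherins lie to the right of 0; the fitted value of Dsc1, with 0 counts under TGF-β, depends on a prior count.

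Claudins fell and rose. Of the 31 claudins, 15 were tested, and of these 10 were higher and 5 lower, beside 42% and 38.8% of all tested genes. At 5 FPKM or more under TGF-β alone 3 were higher and 3 lower, and under 5 FPKM 7 were higher and 2 lower. The median log2 fold change of the tested claudins was 0.94. It was 0.02 over all tested genes and 0.70 over all those under 5 FPKM. The claudins that fell included those with the highest levels, and those that rose included both abundant and nearly silent genes. Groups did not overlap in any of the 15, nor in 74.7% of all tested genes.

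Cldn4, which encodes an abundant sealing claudin of the distal nephron and other epithelia, was the claudin with the most transcripts per length, at 612 ± 6.44 FPKM under TGF-β alone. In CPM scaled by the TMM method it stood at 1155, 1156, 1169 and 1145 in the TGF-β libraries and at 817, 829.9, 798 and 796 with chaetocin. The chaetocin libraries were all lower, and the log2 fold change was -0.51 ± 0.02 (SE; edgeR adjusted p = 1.8e-18). Cldn1, a barrier claudin of skin and of the parietal layer of the glomerulus, fell more. Its TMM-scaled CPM were 339.8, 331, 350.2 and 356 against 166, 175, 179 and 174 (log2 fold change -0.99 ± 0.03; edgeR adjusted p = 5.08e-22). Both genes were lower in 4 of 4 chaetocin libraries by far more than the spread within a group.

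Cldn2 encodes the claudin that forms cation and water pores in the leaky proximal tubule. It was at 3.72, 4.23, 4.40 and 4.22 CPM with TGF-β alone and at 0.641, 0.639, 0.800 and 0.319 CPM with chaetocin. This was the largest fall among the tested claudins (log2 fold change -2.77 ± 0.22; edgeR adjusted p = 4.44e-12) and rests on 348 counts against 42. Cldn34c1, a little described X-linked claudin-like gene, had 8.82, 8.30, 7.61 and 8.80 CPM and then 2.14, 2.36, 2.40 and 2.93 CPM (log2 fold change -1.78 ± 0.13). The Cldn34 genes are close copies of each other, so its reads are less certain. Cldn12, a claudin that lacks the usual binding motif for ZO proteins, fell slightly, from 169.8, 161, 157 and 163 CPM to 143, 141, 142 and 145 CPM (log2 fold change -0.19 ± 0.03). On log2(FPKM + 1) its difference was -0.03 and limma did not call it (adjusted p = 0.372).

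The other abundant claudins, Cldn7, Cldn3 and Cldn6, rose instead. Cldn7, a claudin of the distal nephron and collecting duct that also lies along the lateral membrane, had 81.7, 80.7, 80.3 and 75.7 CPM in the TGF-β libraries and 151, 155, 145 and 160.4 CPM with chaetocin (log2 fold change 0.94 ± 0.03; edgeR adjusted p = 7.8e-20). Cldn3, a sealing claudin, had 79.1, 85.2, 85.4 and 78.0 CPM against 117, 125, 111 and 122.8 CPM (log2 fold change 0.54 ± 0.04). Cldn6, a claudin of embryonic epithelia, had 77.1, 70.7, 73.2 and 66.2 CPM against 109, 111, 103 and 109 CPM (log2 fold change 0.59 ± 0.04). The lowest chaetocin library was above the highest TGF-β library for each of them.

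Because Cldn4 and Cldn1 fell while Cldn7, Cldn3 and Cldn6 rose, the makeup of the claudin transcripts differed more than their total. Summed over all claudins, FPKM were 930.2, 935, 946 and 919.7 in the TGF-β libraries and 870.1, 896, 854 and 876 with chaetocin. Deposited FPKM are not on the TMM scale of the CPM above, so the size of this difference depends on the scale. The mean of Cldn12, for example, went from 44.0 to 43.1 in FPKM and from 163 to 143 in CPM. Cldn4 made up 65.6 ± 0.180% of the summed claudin FPKM under TGF-β alone and 53.1 ± 0.707% with chaetocin (SD, n = 4 per group). The share of Cldn1 was 10.9 ± 0.406% and then 6.36 ± 0.261%. The share of Cldn7 was 6.19 ± 0.161% and then 13.97 ± 0.413%, and that of Cldn3 was 6.70 ± 0.275% and then 11.2 ± 0.396%. These shares are descriptive, and no test was made on them. Cldn4 stayed the leading claudin in all 8 libraries, whereas Cldn1 ranked below Cldn7, Cldn3 and Cldn6 in each chaetocin library and above them in each TGF-β library.

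**Figure D2:**
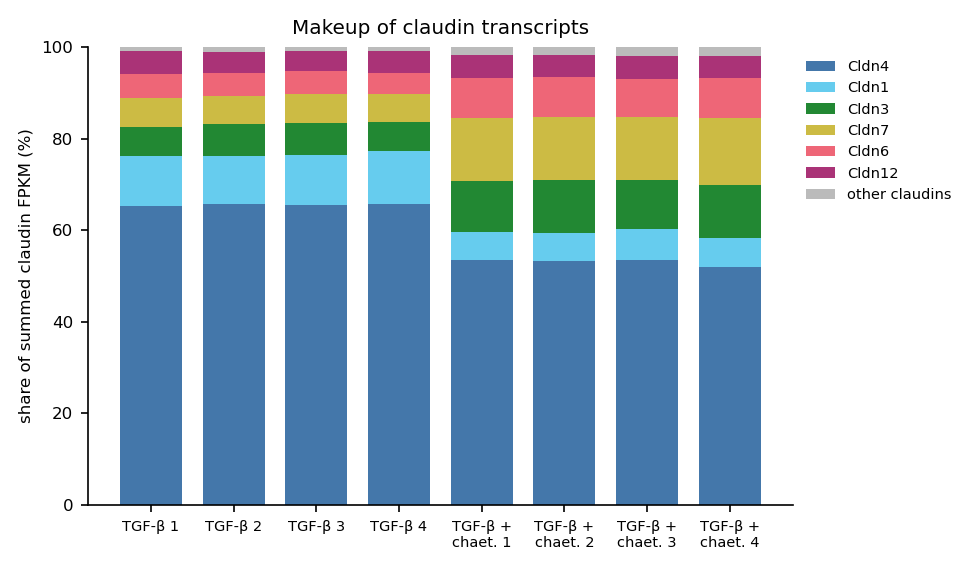
Share of the summed claudin FPKM in percent (y axis) held by the 6 leading claudins and by all other claudins together (grey), for the 4 libraries of each treatment (x axis). The Cldn4 block takes 65.6% on average under TGF-β alone and 53.1% with chaetocin, and the Cldn7 block grows from 6.19% to 13.97%.

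Several claudins with restricted tissue use rose from low levels, where most tested genes of the whole table also rose. Under 5 FPKM, 7 of 9 tested claudins were higher and 2 lower, beside the 60.3% and 18.1% of all genes at that level. Cldn18, the claudin of lung alveolar and stomach epithelium, had 2 counts over the TGF-β libraries, both in replicate 3, and 171, 97, 75 and 105 counts with chaetocin. The ratio of summed counts, scaled for depth, was 270.3, with 74.4 to 2239 as its 95% interval from counting alone (edgeR adjusted p = 1.22e-16), and chaetocin libraries reached 7.31, 6.20, 5.002 and 6.70 CPM. Without TGF-β replicate 3 the group has no counts, and the fitted log2 fold change, which then depends on a prior count, moves from 7.71 to 9.92.

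Cldn19 and Cldn16 encode the claudin pair through which the thick ascending limb takes up magnesium and calcium, and both rose. Cldn19 had 2.85, 2.94, 1.98 and 2.46 CPM against 9.31, 11.1, 8.94 and 8.35 CPM (log2 fold change 1.88 ± 0.14). Cldn16 had 1.10, 0.773, 0.741 and 0.440 CPM against 1.97, 1.98, 2.27 and 2.87 CPM (log2 fold change 1.56 ± 0.25). In these libraries the groups did not overlap for either gene of the pair. Cldn10, which is also used in that nephron segment, was below 1 CPM throughout, with 22 counts under TGF-β and 45 with chaetocin (log2 fold change 1.28 ± 0.37; edgeR adjusted p = 0.00259).

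Cldn23 rose from 1.56, 1.86, 2.12 and 2.16 CPM to 4.87, 5.50, 5.40 and 5.29 CPM (log2 fold change 1.44 ± 0.15). Cldn8, a claudin of the collecting duct, and Cldn9 rose but stayed near 1 CPM or below, with 14 and 17 counts over the TGF-β libraries against 54 and 57 with chaetocin. The other 16 claudins did not pass the filter. Cldn15 had the most counts among them, 15 and 33. Cldn14, Cldn13 and Cldn17 had 0 counts under TGF-β and 8, 7 and 5 with chaetocin. Cldn5, the endothelial claudin, had 7 and 2 counts, and Cldn11, the claudin of myelin and of Sertoli cells, had 2 and 5. Cldn22, Cldn34a, Cldn34b1, Cldn34c4 and Cldn34d had no counts in any of the 8 libraries, where 3 counts in 1 library correspond to 0.128 to 0.200 CPM.

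**Figure D3:**
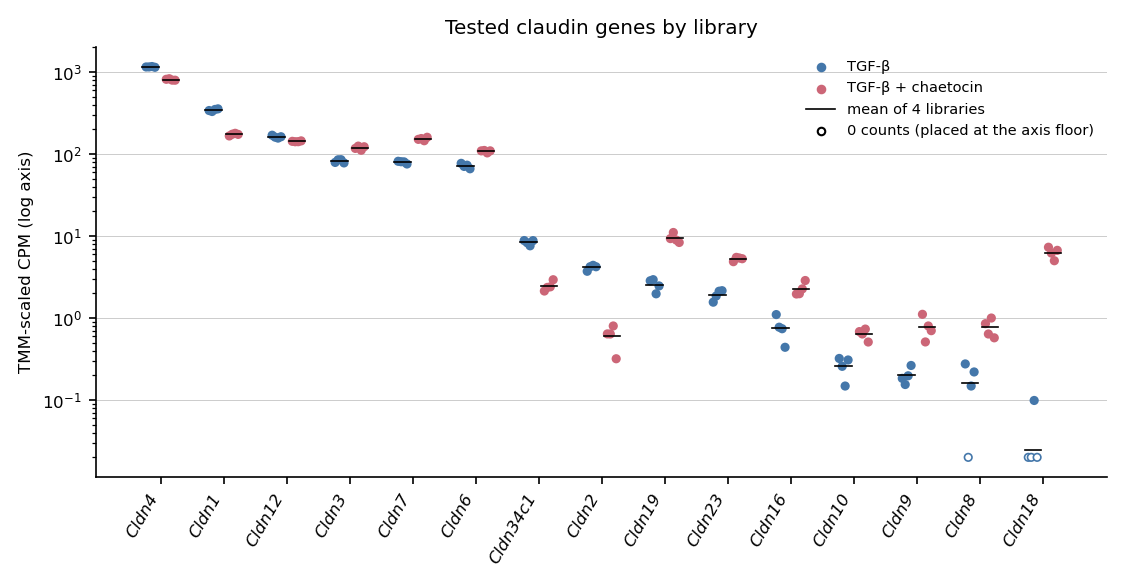
TMM-scaled CPM (y axis, log scale) of the 15 tested claudins (x axis, ordered by mean under TGF-β alone) in each library, with a bar at the mean of 4 libraries and open points at the axis floor for libraries with 0 counts. Points of the treatments are separate for each gene; Cldn4 goes from between 1145 and 1169 to between 796 and 829.9, and Cldn18 climbs from the floor to between 5.002 and 7.31.

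Neighbouring claudin genes did not always move together. Cldn4 and Cldn3 are adjacent on chromosome 5 (GRCm38), at chr5:134945119-134946934 and chr5:134986214-134987472, 39279 bases apart on opposite strands, and the first fell while the second rose. Cldn1 and Cldn16 are neighbours on chromosome 16, 91293 bases apart, and again the first fell and the second rose. Cldn6 and Cldn9 lie 137 bases apart on chromosome 17 on opposite strands, and both rose. Where reads were counted without strand, reads near so short a gap are less certain for Cldn9, the gene with few counts.

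The promoters of the claudin with the largest rise, the claudin with the largest fall and the most abundant claudin are shown to let their sequences be compared. Each is the 250 bases before a start site, from RefSeq on build GRCm38.p6, read on the gene's strand. Capitals mark matches to the motifs searched on both strands: CACCTG, the E-box bound by SNAIL and ZEB factors, AACCNGTT of grainyhead factors, TGANTCA of AP-1, and TATAAA. Cldn18 has a start site at each of 2 first exons, and gene counts do not tell its transcripts apart. The regions are chr9:99717268-99717517 (minus strand) and chr9:99710064-99710313 (minus strand) for Cldn18, chrX:139800558-139800807 (plus strand) for Cldn2 and chr5:134946935-134947184 (minus strand) for Cldn4.
Cldn18 upstream start: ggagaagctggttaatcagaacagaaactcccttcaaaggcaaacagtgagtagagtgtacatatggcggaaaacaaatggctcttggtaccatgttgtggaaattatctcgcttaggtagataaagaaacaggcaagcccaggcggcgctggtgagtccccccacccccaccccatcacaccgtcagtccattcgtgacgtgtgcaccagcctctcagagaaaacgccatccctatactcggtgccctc
Cldn18 downstream start: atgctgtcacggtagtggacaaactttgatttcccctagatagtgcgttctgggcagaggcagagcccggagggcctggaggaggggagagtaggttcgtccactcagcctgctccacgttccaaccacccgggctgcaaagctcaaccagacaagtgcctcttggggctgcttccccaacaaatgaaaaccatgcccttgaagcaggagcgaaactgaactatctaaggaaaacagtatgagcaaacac
Cldn2: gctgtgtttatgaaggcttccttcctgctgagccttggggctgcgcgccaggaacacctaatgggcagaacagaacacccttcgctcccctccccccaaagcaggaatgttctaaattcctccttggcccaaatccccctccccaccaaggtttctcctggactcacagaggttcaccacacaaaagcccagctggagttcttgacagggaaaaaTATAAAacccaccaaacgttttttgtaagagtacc
Cldn4: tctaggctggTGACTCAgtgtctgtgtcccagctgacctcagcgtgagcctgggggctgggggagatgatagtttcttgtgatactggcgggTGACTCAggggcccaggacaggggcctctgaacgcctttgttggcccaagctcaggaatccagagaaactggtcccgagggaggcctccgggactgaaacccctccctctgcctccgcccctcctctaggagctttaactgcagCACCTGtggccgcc

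Neither Cldn18 window holds any of the 4 motifs, the Cldn2 window holds a single TATAAA, and the Cldn4 window holds an E-box near its start site and 2 AP-1 matches farther upstream. RefSeq promoters were matched for 35 of the 58 genes, with 48 windows in all. The E-box was in 12 of these 48 windows and in 17.2% of the 32851 windows of the table. AP-1 was in 6 windows and in 6.75% of the table, TATAAA in 5 and in 12.4%, and the grainyhead motif in 2, those of Cgn and Cldn5, and in 1.79%. Windows of 1 gene can overlap, and a match is a run of letters, not a shown site.

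The log2 fold changes of the other tight junction membrane proteins ranged from -0.63 to 0.35. Of the 5 genes, 2 were higher, 2 lower and 1 was not called, beside 42% higher and 38.8% lower over all tested genes. All 5 were at 5 FPKM or more under TGF-β alone, the level at which 29% of all tested genes were higher and 53.4% lower. F11r, which encodes the adhesion molecule JAM-A, had 162, 165, 163 and 163 CPM with TGF-β alone and 108, 109.5, 108 and 112 CPM with chaetocin (log2 fold change -0.58 ± 0.03; edgeR adjusted p = 6.39e-17). Cxadr, the coxsackievirus and adenovirus receptor and an adhesion molecule of the same immunoglobulin family, had 240.2, 216, 229 and 224 CPM against 149, 150.1, 144 and 147 CPM (log2 fold change -0.63 ± 0.03). Both immunoglobulin-type members were lower in every chaetocin library.

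The MARVEL proteins of the strand showed smaller differences. Ocln, which encodes occludin, had 43.3, 41.8, 38.4 and 40.2 CPM against 50.5, 51.3, 42.3 and 45.1 CPM (log2 fold change 0.22 ± 0.05; edgeR adjusted p = 0.000669). The groups overlapped, since chaetocin replicate 3 lay below TGF-β replicate 1. Marveld3 had 21.7, 21.2, 17.2 and 16.4 CPM against 25.5, 24.8, 23.8 and 22.8 CPM (log2 fold change 0.35 ± 0.08). Marveld2, tricellulin, which seals the corners where cells meet, had 31.2, 31.9, 32.5 and 30.6 CPM against 30.8, 29.4, 30.1 and 30.3 CPM and was not called (log2 fold change -0.06 ± 0.05; edgeR adjusted p = 0.224). Its sign depends on scaling, at 0.05 when libraries were scaled by total counts. Marveld2 and Ocln are neighbouring genes on chromosome 13, 43238 bases apart.

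Among the plaque and polarity genes 5 were higher and 2 lower of 7, beside 42% and 38.8% of all tested genes. Of the 6 at 5 FPKM or more under TGF-β alone, 4 were higher and 2 lower, where 29% and 53.4% of all tested genes were. Pard6b, which encodes an adaptor of the PAR polarity complex that binds atypical protein kinase C and Cdc42, rose most. It had 68.2, 77.2, 68.5 and 72.3 CPM with TGF-β alone and 280.1, 284, 266 and 274 CPM with chaetocin, 3.86 times as much (log2 fold change 1.95 ± 0.03; edgeR adjusted p = 6.21e-27). Pard3, the scaffold of the same complex, fell, with 111, 114, 106 and 111 CPM against 67.4, 69.6, 64.8 and 64.8 CPM (log2 fold change -0.73 ± 0.03; edgeR adjusted p = 5.31e-17). So the 2 PAR genes moved in opposite directions. The groups of each were far apart.

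Cgn, cingulin, which links ZO proteins to actomyosin, rose from 124, 119.8, 124 and 121 CPM to 204, 209.7, 205 and 216 CPM (log2 fold change 0.77 ± 0.03; edgeR adjusted p = 7.61e-20). Its relative Cgnl1, paracingulin, changed less, from 509, 489, 475 and 477 CPM to 543, 550.0, 534 and 516 CPM (log2 fold change 0.14 ± 0.03). The scaffold genes Tjp1 and Tjp3 moved by less than Cgn, and in opposite directions. Tjp1 fell slightly, from 352, 338, 342 and 347 CPM to 314, 308, 303 and 295 CPM (log2 fold change -0.17 ± 0.02; edgeR adjusted p = 3.27e-07). Tjp3, which encodes ZO-3, was at 3.22, 2.11, 2.82 and 2.07 CPM and rose to 3.55, 4.73, 4.20 and 3.44 CPM (log2 fold change 0.63 ± 0.17). The fall of Tjp1 was not called by limma on log2(FPKM + 1), at -0.06 (adjusted p = 0.0648).

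**Figure D4:**
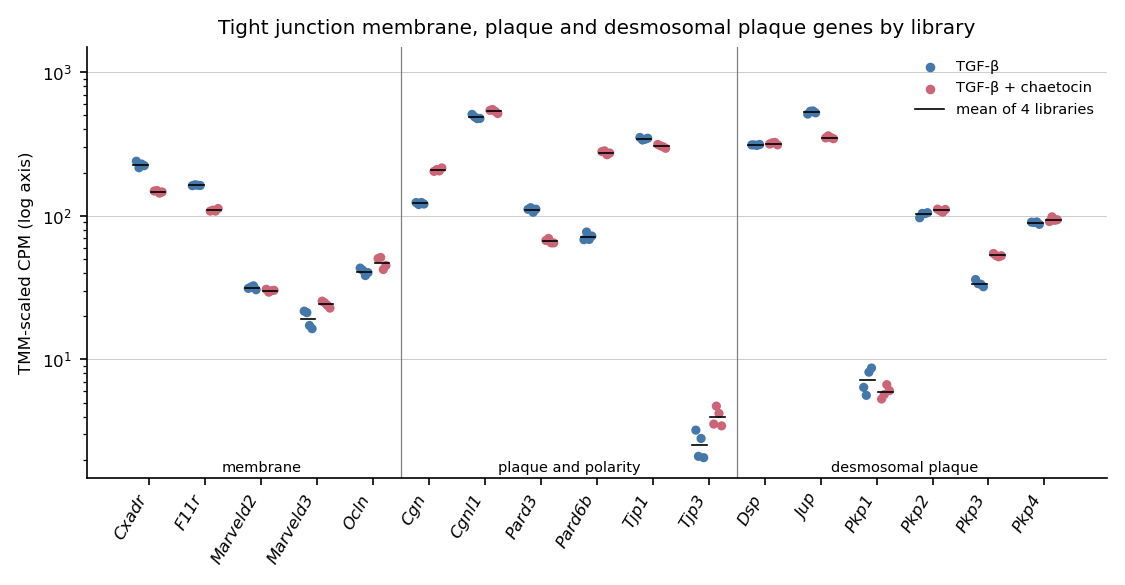
TMM-scaled CPM (y axis, log scale) in each library for tight junction membrane genes, plaque and polarity genes and desmosomal plaque genes (x axis, parted by grey lines), with a bar at the mean of 4 libraries. Pard6b moves from 68.2 to 77.2 up to 266 to 284, Pard3, F11r, Cxadr and Jup move down, and the points of Dsp and Marveld2 overlap between treatments.

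Desmosomal cadherins gave a single direction. All 8 tested genes were higher with chaetocin, 6 of them with a fold of at least 2, and their median log2 fold change was 4.69. Of the 8, 6 were under 5 FPKM with TGF-β alone, the level at which 60.3% of all tested genes were higher, and genes at or near 0 counts there passed the filter only through the chaetocin libraries. The count of rises and the median are therefore partly set by the filter. The 2 genes at 5 FPKM or more, Dsg2 and Dsc2, rose by 0.22 and 0.36 on the log2 scale. The remaining desmosomal cadherin gene, Dsg1c, did not pass the filter, with 0 counts under TGF-β and 27 with chaetocin, at least 10.9-fold higher against a floor of 3 counts over the group. The rises were very unequal, and the genes fall into a pair used by simple epithelia and a set known from stratified epithelia such as epidermis and hair.

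Dsg2 and Dsc2 form the desmosomes of simple epithelia. Dsg2 had 115, 114, 108 and 112 CPM with TGF-β alone and 134, 130.0, 137 and 124 CPM with chaetocin (log2 fold change 0.22 ± 0.03; edgeR adjusted p = 5.78e-07). Dsc2 had 40.0, 36.3, 33.0 and 34.7 CPM against 47.0, 45.2, 46.8 and 46.4 CPM (log2 fold change 0.36 ± 0.05). Each was higher in 4 of 4 libraries, by under 1.5 times.

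Dsg4, the desmoglein of the hair shaft cortex, had 0.276, 0.103, 0.642 and 0.220 CPM with TGF-β alone and 24.4, 24.0, 21.5 and 22.2 CPM with chaetocin. The means differed 74.2-fold (log2 fold change 6.19 ± 0.17; edgeR adjusted p = 2.07e-22). Of the 26 counts under TGF-β, 13 were in replicate 3, and without it the means differed 115-fold. Dsg3, the desmoglein of the basal layers and the pemphigus vulgaris antigen, had 1.84, 1.29, 1.14 and 1.45 CPM against 16.5, 16.9, 16.5 and 17.98 CPM (log2 fold change 3.55 ± 0.12; edgeR adjusted p = 3.57e-20). On the per-length scale Dsg4 and Dsg3 reached 6.88 ± 0.414 and 3.12 ± 0.0964 FPKM with chaetocin, below Dsg2 at 26.5 ± 1.21 FPKM (mean ± SD, n = 4).

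Dsc1, a desmocollin of the upper epidermis, was at 0 in all TGF-β libraries and had 100, 49, 55 and 63 counts with chaetocin, at least 107-fold higher against the same floor (edgeR adjusted p = 2.46e-14). Dsc3, the desmocollin of basal layers, had 2, 0, 4 and 0 counts and then 61, 41, 40 and 52, and the means of its CPM differed 38.7-fold (edgeR adjusted p = 4.03e-12). Without TGF-β replicate 3 the fitted log2 fold change of Dsc3 moves from 5.17 to 6.20. These genes were thus nearly silent without chaetocin and reached 3.77 ± 0.494 and 2.80 ± 0.343 CPM with it (SD, n = 4).

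Dsg1a, Dsg1b and Dsg1c are close copies of the superficial epidermal desmoglein, so reads can be split between them. Dsg1a had a single count under TGF-β, in replicate 3, and 30, 25, 21 and 23 counts with chaetocin. The ratio of summed counts, scaled for depth, was 119 (95% interval from counting alone, 21.0 to 4766). Without that library its fitted log2 fold change moves from 6.28 to 7.77. Dsg1b had 4, 2, 2 and 2 counts and then 58, 25, 48 and 31 (log2 fold change 4.21 ± 0.36).

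In FPKM, Dsg2 and Dsc2 together stood at 27.5 ± 2.36 under TGF-β alone and 37.4 ± 1.24 with chaetocin, and the other 7 desmosomal cadherins at 0.370 ± 0.0876 and 12.7 ± 0.286 (SD, n = 4 per group). The share of those 7 in the sum of all 9 ranged from 0.856 to 1.77% under TGF-β alone and from 24.4 to 26.6% with chaetocin. All 9 genes lie in 1 cluster on chromosome 18 (GRCm38), from Dsc3, which starts at position 19960930, to Dsg2, which ends at 20604521, with no other protein-coding gene between them in GENCODE M21. Dsc2 lies inside the cluster between Dsc3 and Dsc1, and Dsg2 at its end next to Dsg3. The 2 genes with small fold changes are therefore not each other's neighbours. No sequence of this cluster is shown.

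**Figure D5:**
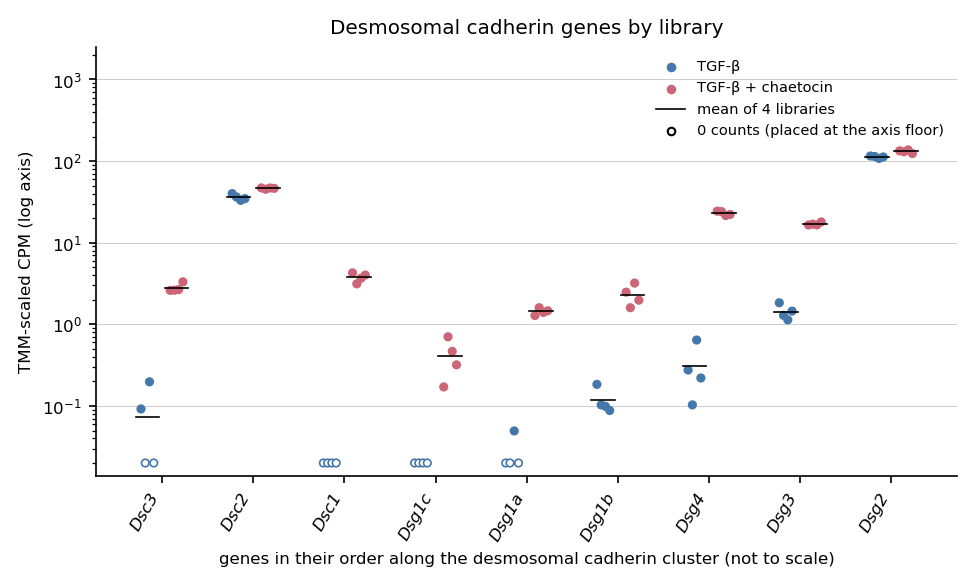
TMM-scaled CPM (y axis, log scale) of the 9 desmosomal cadherin genes in each library, placed in their order along the cluster (x axis, not to scale), with a bar at the mean of 4 libraries and open points at the axis floor for 0 counts. Dsc2 and Dsg2 move little, within 33.0 to 47.0 and 108 to 137, while the other 7 lie between 0 and 1.84 with TGF-β alone and between 0.171 and 24.4 with chaetocin.

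The desmosomal plaque genes did not share a direction. Of 6 genes 3 were higher, 2 lower and 1 not called, beside 42% and 38.8% of all tested genes. None had a fold of 2. At 5 FPKM or more under TGF-β alone 3 of 5 were higher and 1 lower, where 29% and 53.4% of all tested genes were. At that level the cadherins Dsg2 and Dsc2 rose by 0.22 and 0.36, within the plaque genes' range of -0.58 to 0.65. The other 6 tested cadherins were under 5 FPKM. Scaled by total counts, 4 plaque genes were higher and 1 lower. Jup, plakoglobin, which binds desmosomal and classical cadherins, fell, with 511, 535, 538 and 522 CPM against 349, 361, 351 and 344 CPM (log2 fold change -0.58 ± 0.02; edgeR adjusted p = 1.88e-18). Dsp, desmoplakin, the anchor of keratin filaments, had 312, 312, 309 and 314 CPM against 316, 323, 325 and 312 CPM and was not called (log2 fold change 0.03 ± 0.02; edgeR adjusted p = 0.202). Its call depends on processing: scaled by total counts, Dsp was called higher at 0.15 on the log2 scale (edgeR adjusted p = 1.87e-06). Limma on log2(FPKM + 1) also called it higher, at 0.13 (adjusted p = 0.000904). With a filter of 1 CPM in 4 libraries it was called at 0.05 (edgeR adjusted p = 0.0463).

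Pkp3, a plakophilin found in most epithelia, rose from 36.0, 33.7, 33.4 and 32.1 CPM to 54.7, 52.8, 51.8 and 52.7 CPM (log2 fold change 0.65 ± 0.04; edgeR adjusted p = 2.22e-13). The other plakophilins moved by much less. Pkp2, the plakophilin of simple epithelia and heart, rose from 97.0, 104, 104 and 105 CPM to 111, 109, 106 and 111 CPM (log2 fold change 0.09 ± 0.03; edgeR adjusted p = 0.0096), a call lost without TGF-β replicate 1 (adjusted p = 0.0885). Pkp4, which is also found at adherens junctions, had 90.4, 89.9, 90.7 and 87.3 CPM against 91.3, 98.5, 93.1 and 93.9 CPM (log2 fold change 0.07 ± 0.03; edgeR adjusted p = 0.0457). Leaving out any library but chaetocin replicate 1 lost that call (adjusted p = 0.0582 to 0.199). Pkp1, the plakophilin of stratified epithelia, had 6.38, 5.62, 8.15 and 8.71 CPM against 5.30, 5.69, 6.67 and 6.06 CPM, with overlapping groups (log2 fold change -0.30 ± 0.13; edgeR adjusted p = 0.039). DESeq2 did not call Pkp1 (adjusted p = 0.079), and its call was lost without TGF-β replicate 3 or 4 or chaetocin replicate 1, 2 or 4 (edgeR adjusted p = 0.0513 to 0.182).

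Other junction genes were counted from lists of known components. Adherens junction genes, whose classical cadherins and catenins lie just below the tight junction, were lower in 15 and higher in 7 of 23 tested, with a median log2 fold change of -0.20. These counts and those of the next lists stand beside 42% higher and 38.8% lower over all tested genes, and beside 29% and 53.4% among genes of at least 5 FPKM, the level of 17 of these 23 genes. Cdh11, a cadherin of mesenchymal cells, and Cdh6, a cadherin of kidney tubule epithelium and its precursors, fell from 406 ± 6.49 to 64.8 ± 7.25 CPM and from 449.8 ± 7.72 to 86.2 ± 3.77 CPM (SD, n = 4 per group). Lmo7, an afadin-binding protein, and Ctnnd2, a catenin, rose by 2.47 and 1.34 on the log2 scale. Cdh1 stood at 651 ± 8.10 and 618 ± 21.6 CPM, and its direction turned with scaling, from a log2 fold change of -0.07 (edgeR adjusted p = 0.00587) to 0.04 when scaled by total counts (adjusted p = 0.125).

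Partners of the tight junction were lower in 16 and higher in 9 of 28 (median -0.21). Of the 20 at 5 FPKM or more under TGF-β alone, 14 were lower and 5 higher, where 53.4% and 29% of all tested genes were. Of the 8 under 5 FPKM, 2 were lower and 4 higher, where 18.1% and 60.3% of all tested genes were. Among the 28 partners were Arhgef2, a GTPase exchange factor held by cingulin, at -0.85 and Amotl2, an angiomotin, at -0.62. Magi2 was at 1.52 and Ildr1, an angulin of tricellular junctions, at 0.73. Polarity genes outside the group described here were higher in 7 and lower in 9 of 21 (median -0.05), with the apical Crumbs protein gene Crb3 at 1.58, Stk11 at 0.88, Dlg4 at -0.70 and Llgl1 at -0.46. Scaled by total counts the polarity genes were higher in 10 and lower in 6 (median 0.06), so no direction is given for them. Hemidesmosome and desmosome-associated genes were higher in 10 and lower in 7 of 17 (median 0.22): periplakin (Ppl) was at 2.18, Itgb4 at 0.80, Vim at -1.40 and Cd151 at -0.35. Gap junction genes were lower in 7 and higher in 2 of 11 (median -0.63). Gja1, the main connexin of fibroblasts, fell from 232 ± 2.79 to 69.5 ± 2.63 CPM while Gjc3 rose from 2 counts to 71.

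Transcription factors known to act on junction genes, listed with the splicing regulators Esrp1 and Esrp2, were higher in 14 and lower in 8 of 25 (median 0.22). Of the 12 at 5 FPKM or more under TGF-β alone, 5 were higher and 7 lower. Of the 13 under 5 FPKM, 9 were higher and 1 lower, where 60.3% and 18.1% of all tested genes were. Ovol1, an epithelial repressor, rose from 0.129 ± 0.0929 to 20.6 ± 2.47 CPM and Grhl2, a grainyhead factor that acts on claudin and cadherin genes, from 43.5 ± 0.299 to 87.4 ± 3.07 CPM (n = 4 per group). Zeb2, a repressor of epithelial junction genes, fell from 95.3 ± 4.34 to 43.5 ± 4.27 CPM. Whether any of these factors bears on the junction genes was not tested.

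Markers of cell types that carry particular junction genes were measured in the same libraries. Their counts stand beside 42% higher and 38.8% lower over all tested genes. Stratified epithelium markers, the setting in which the low desmosomal cadherins are known, were higher in 9 of 10 tested and lower in none, and their summed level was 319 to 338 CPM under TGF-β alone and 523 to 559.7 CPM with chaetocin. Sfn gave the most reads to that sum, 263 ± 9.44 and 385 ± 13.6 CPM. Of the 10, 7 were under 5 FPKM with TGF-β alone and 6 of these were higher, where 60.3% of all tested genes were. The 3 at 5 FPKM or more were all higher. The filter kept 10 of the 16 markers listed, so the count of rises is partly set by it. Krt5 rose from 9 counts to 289 and Trp63 from 27 to 124, whereas Krt1 and Krt13 had no counts in any library and Krt14, the partner of Krt5, had 16 and 20. Kidney tubule markers were higher in 8 and lower in 7 of 16, with sums of 4484 to 4673 and 7741 to 8079 CPM, to which Krt8 and Krt18 gave the most reads. Among them Slc12a1, of the thick ascending limb where Cldn16 and Cldn19 are known, rose from 21 counts to 648, whereas Umod, of the same segment, had 50 and 36 counts and was not called (log2 fold change -0.19; edgeR adjusted p = 0.616). Fibroblast markers were lower in 7 and higher in 4 of 15, with sums of 4746 to 4943 and 3054 to 3564 CPM. Vim fell from 1163 to 442 CPM and Fbln2 from 982 to 274 CPM, whereas Acta2 rose from 1248 to 1598 CPM and Dcn from 11 counts to 160. Endothelial markers had sums of 84.3 to 94.4 and 127 to 138 CPM (5 higher and 4 lower of 12), leukocyte markers of 369 to 406 and 226 to 266 CPM (4 higher and 7 lower of 11), and glial and neural markers of 60.4 to 65.2 and 54.9 to 60.1 CPM (1 higher and 1 lower of 4, or 2 and 1 scaled by total counts). Aqp2 of the tubule list, Krt6a and Sprr1b of the stratified list and Cd3e of the leukocyte list were at 0 under TGF-β alone. The part of these markers in the junction gene results was not tested.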

How the data were processed

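RNA was measured in 8 libraries, 4 with TGF-β and 4 with TGF-β and chaetocin. Per the labels' protocols, RNA came from an RNeasy kit and mRNA libraries from a SMARTER kit. Per the submitters' processing notes the genome was GRCm38. How reads were aligned, counted and assigned by strand is not stated in the sources. Exons of 7 members overlap a gene on the other strand (Cldn3, Cldn19, Cldn22, Cxadr, Dsg2, Dsp and Tjp3), so their reads are less certain. Per the file headers, the authors deposited read counts and FPKM for 22274 genes. The authors' mean FPKM, log2 ratio, p-value and FDR columns, also deposited, were not used for results. No column of another sample was present.

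Counts were tested with edgeR 4.0.16 (R 4.3.3): filterByExpr, TMM scaling, quasi-likelihood F test and Benjamini-Hochberg adjustment over 14608 genes, called at adjusted p under 0.05. The SE is the log2 fold change divided by the square root of F. CPM are TMM-scaled, with SD over 4 libraries. Levels of different genes were compared in deposited FPKM, and summed marker CPM are sums of reads, not per length. Positions are from GENCODE M21 (GRCm38). The test was checked on simulated counts. Alternatives used limma 3.58.1 and DESeq2 1.42.0. The members, gene lists and tests were chosen with earlier results of these data known. Named are all members and, from each other junction list, the 2 called genes with the smallest p in each direction; the Cldn4 promoter, Cdh1, Epcam and other markers were named after their values were seen. Some genes that this would name are counted in the tests but not reported here. Replicates differed beyond sampling noise, at a chi-square of 2.04 to 2.61 for the average gene. Intervals cover counting error only.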

Additional observations from a re-analysis of the deposited data

Results flagged for a closer look

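Single libraries stood apart in 4 of the 79 comparisons of 4 libraries made for the tested genes, where chance gives about 1 in 20 for continuous values. Of the 4, 3 were low counts under TGF-β alone, to which that rate does not apply. A library with any count always stands apart when the others have none. Cldn18 was at 0.0988 CPM in replicate 3, from 2 counts, and at 0 in the other 3 libraries. Dsg1a was at 0.0494 CPM in replicate 3, from 1 count, and at 0 in the others. Dsg1b was at 0.184 CPM in replicate 1, from 4 counts, where the others lay between 0.0880 and 0.103. With chaetocin, Dsc3 was at 3.32 CPM in replicate 4 against 2.61 to 2.67 in the other 3 libraries.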

How the results depend on the processing

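The counts of 28 higher and 11 lower junction genes moved by less than 1.5 times under every alternative except the fold minimum, which left 14 and 2. The other alternatives, including DESeq2, limma-voom, limma on FPKM and other filters, gave 22 to 33 higher and 8 to 11 lower. Leaving out 1 library gave 26 to 28 higher and 10 to 11 lower. Total-count scaling moved the median of all genes from 0.02 to 0.14, leaving out the count filter moved it to 0.21, and these gave 29 and 31 higher and 10 and 11 lower. With the replicate block the counts were 27 and 11, and Pkp4 was no longer called (adjusted p = 0.0504). Libraries of the same number did not deviate together (correlations of -0.02 to 0.04, with 2 of 4 libraries correlating best with their own number). These correlations show no pairing by number but cannot exclude it. Signs reversed for Marveld2, not called in any of these, at 0.05 with total-count scaling and, with limma, at 0.0553 on log2(FPKM + 1) with or without an FPKM filter and 0.0601 on log2(FPKM + 0.1), and for Dsp, at -0.0046 without a filter. Pkp1, Pkp2, Pkp4, Cldn12 and Tjp1 lost their calls under at least 1 alternative. Dsp, not called in the main test, was called higher with total-count scaling, with limma on FPKM and with the filter of 1 CPM in 4 libraries. Fold changes of genes near 0 under TGF-β depend on the prior or pseudocount: Cldn18 was at 1.94 on log2(FPKM + 1) and 4.78 on log2(FPKM + 0.1), and Dsc1 at 7.33 with limma-voom.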
